A study of Mus musculus with 10 samples.

Results

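The genes described here are 40 members of the pathways that take up glucose and break it down, store it as glycogen or pass it through the pentose phosphate route. They were listed by gene symbol and joined to the count data by Entrez number. Of the 40, 39 were among the 13568 genes with enough counts to test, out of 24454 genes in the count data, and the enolase gene Eno1 was not.

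RNA sequencing was performed on brown adipose tissue (BAT) from ad libitum fed male mice aged 2 months on a C57BL/6N background, with 5 control and 5 Stat5Adipoq libraries. The titles of all libraries of both genotypes carry the word basal. In Stat5Adipoq mice, Cre recombinase driven by the Adipoq promoter, which is active in adipocytes, deletes Stat5. The controls are wild type in the labels and Cre-negative littermates with floxed Stat5 in the study's methods. The tissue was measured whole, so fewer cells of a type and less RNA per cell cannot be told apart.

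Glucose enters the adipocyte through transporters, is trapped as glucose 6-phosphate by a hexokinase, and is then split in glycolysis to pyruvate and lactate. The same glucose 6-phosphate can be stored as glycogen or oxidised in the pentose phosphate pathway, which yields NADPH for fatty acid synthesis and ribose for nucleotides. BAT burns fatty acids to make heat and is known for taking up large amounts of glucose when it is stimulated.

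Each library held 8488129 to 19514904 counts. Levels are given as CPM, the gene's counts per 1000000 counts of the library after TMM scaling. Stat5a lay between 86.9 and 130.4 CPM in the controls and between 15.8 and 20.7 in Stat5Adipoq, and Stat5b between 76.6 and 91.9 and between 21.0 and 22.9, so that both deleted genes were lower in every Stat5Adipoq library. Ucp1, the heat-producing uncoupling protein of brown adipocytes, ranged from 5399.7 to 13825 CPM, and the log2 fold change between genotypes was 0.24 with an adjusted p of 0.69 in edgeR's quasi-likelihood test. The library of control 3 held skeletal muscle RNA. The summed level of 18 muscle genes was 5644 CPM there, with all 18 at their highest, against 42.8 to 506 CPM in the other 4 controls and 51.8 to 115.8 CPM in Stat5Adipoq. Its 9 liver genes summed to 102 CPM against at most 7.11 CPM elsewhere. The fits and the overlap of groups were therefore computed with and without this library. Shares of paired genes per kilobase were computed with it only.

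A single member, Hk1, passed the test in all 10 libraries. It was higher in Stat5Adipoq, and no member was lower. Counted over all tested genes, 2.71% were called in either direction, 1.40% higher and 1.31% lower. The count among members, 1 of 39 or 2.56%, lay at that background. The median log2 fold change, Stat5Adipoq over control, was 0.03 over the members and -0.00277 over all tested genes. The changes were small: 34 of the 39 lay within 0.2 of 0 on the log2 scale, beside 9591 of all 13568 tested genes. For 31 of 39 (79.5%) the whole 95% confidence interval lay within 0.5 of 0, against 63.1% of all tested genes. Without control 3, 3 members were called, with Hk1 joined by Pgm2 among the higher and Pfkfb1 among the lower. That is 7.69% of the members beside 3.26% of all tested genes, 1.62% higher and 1.64% lower. The median of the members was then 0.12, and 33 of 39 lay above 0 in place of 23 of 39, while the median over all tested genes was -0.00188. Of all tested genes, 49.5% lay above 0 without control 3 and 49.2% with it. Between libraries of a genotype, the median over members of log2 CPM centred on each gene had an SD of 0.104. At an unadjusted p below 0.05, 8 of 39 members passed beside 15.2% of all tested genes. DESeq2 called 2 of 39, Hk1 and Pfkfb1, beside 4.85%, and 3 of 39 without control 3 beside 5.00%.

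**Figure D1:**
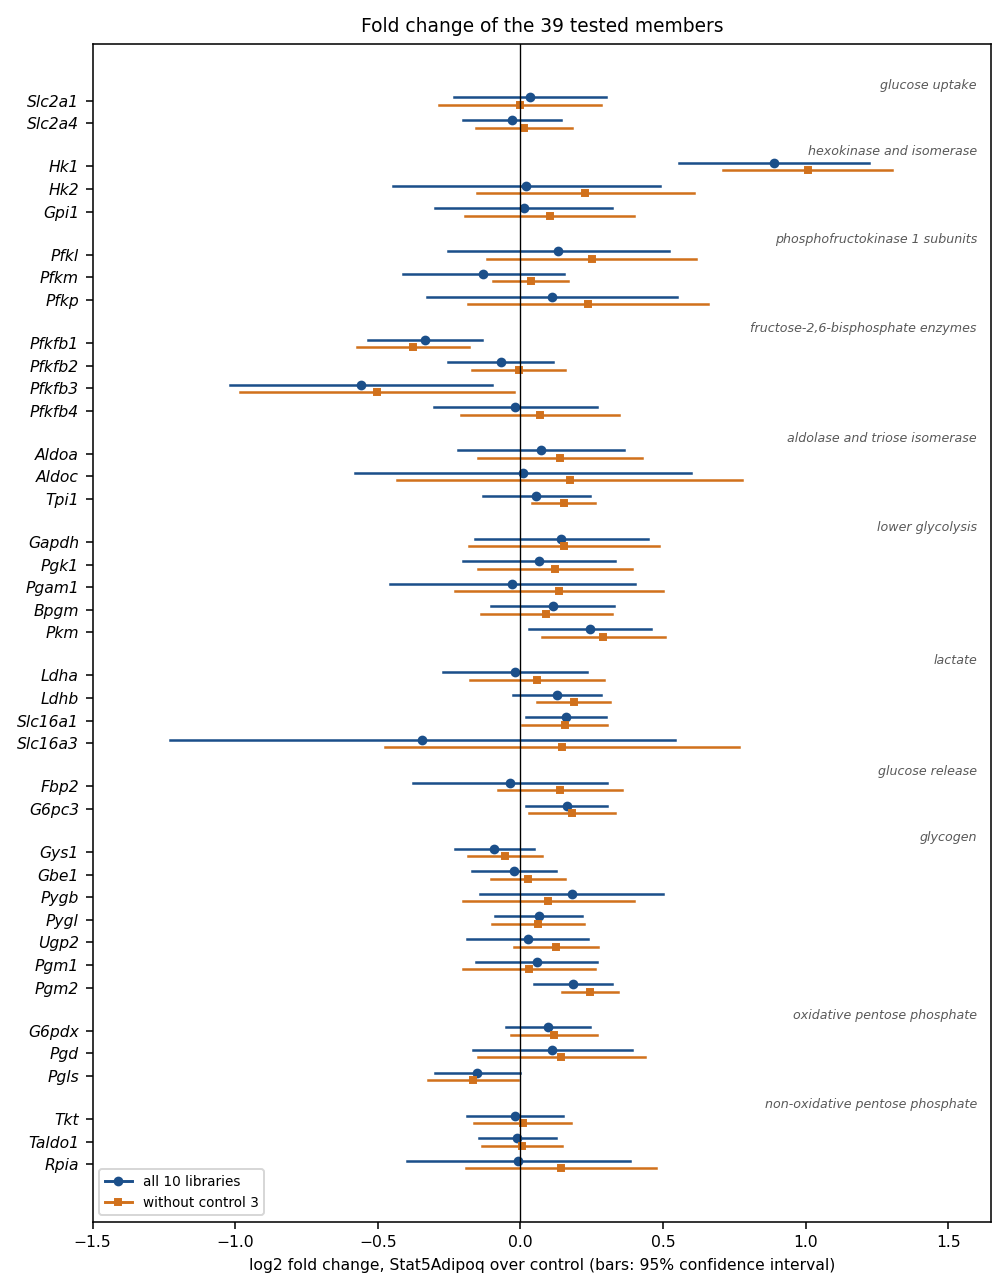
Log2 fold change of each tested member (x axis, Stat5Adipoq over control), with members on the y axis grouped by role; points are fitted values and bars 95% confidence intervals, in blue for all 10 libraries and in orange without control 3. Hk1 sits at 0.89 in all 10 libraries, away from the other members, and Pfkfb1 and Pfkfb3 lie furthest to the left among those with an interval that does not cross 0.

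The glucose transporters showed no difference that passed the test. Slc2a4 encodes GLUT4, the transporter that insulin moves to the surface of fat and muscle cells. Its level was 665.0, 754, 841, 771 and 745 CPM in controls 1 to 5 and 639, 689.8, 778, 816 and 776 CPM in Stat5Adipoq 1 to 5. The groups overlapped along most of their range, and the log2 fold change of -0.03 had a 95% interval from -0.20 to 0.14. Slc2a1, which encodes the widely expressed transporter GLUT1, was low in both genotypes, at 9.80 ± 1.84 CPM (SD, n = 5) and 10.1 ± 0.542 CPM (SD, n = 5). Per kilobase of transcript, Slc2a4 reached 299 ± 24.9 CPM in the controls and Slc2a1 3.01 ± 0.564 CPM, so GLUT4 transcripts made up all but about 1% of the pair: Slc2a1 contributed 0.996 ± 0.171% (SD, n = 5) in the controls and 1.06 ± 0.116% in Stat5Adipoq.

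Hk1 and Hk2 encode the hexokinases that bind to mitochondria and phosphorylate glucose on entry. Hk1 was measured at 38.7, 43.5, 60.3, 46.5 and 37.4 CPM in controls 1 to 5 and at 65.0, 74.2, 75.8, 100.4 and 103 CPM in Stat5Adipoq 1 to 5. Every Stat5Adipoq library lay above every control, the nearest being Stat5Adipoq 1 and control 3. The means were 45.3 ± 9.17 and 83.8 ± 17.1 CPM (SD, n = 5 each), a 1.85-fold difference with a 95% interval from 1.47 to 2.33. The adjusted p was 0.0093 in edgeR's quasi-likelihood test, 0.0024 without control 3, where the log2 fold change was 1.01, and 2.6e-06 by DESeq2. The call held in all 20 alternative settings, with log2 fold changes from 0.80 to 1.01 and a highest adjusted p of 0.029.

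Hk2, the insulin-responsive form, was the more abundant of the pair. It was found at 603, 647, 1172, 839.6 and 552 CPM in controls 1 to 5 and at 489.9, 697, 879, 954 and 847 CPM in Stat5Adipoq 1 to 5. Control 3 was the highest library and Stat5Adipoq 1 the lowest, and the groups overlapped throughout. The log2 fold change was 0.02 (95% interval -0.45 to 0.49) with control 3 and 0.23 (adjusted p 0.59) without it. As a description, Hk1 made up 8.05 ± 0.898% (SD, n = 5) of Hk1 and Hk2 transcripts per kilobase in the controls, with a range from 6.86 to 8.85%, and 13.6 ± 1.90% in Stat5Adipoq, with a range from 11 to 16.0%.

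Hk1 lies on the minus strand of chromosome 10 in GRCm38. Its transcript with the longest coding sequence, of 3851 bases, has no 50-base stretch in common with another annotated gene. The rest of the 8532 exon bases of Hk1 was not searched. An antisense gene, Hk1os, overlaps 1.84% of its exon bases and had 0 to 3 counts per library, and its neighbour Hkdc1 had at most 1 count. Start sites of Hk1 were taken at 2 RefSeq positions. The sequence before each is shown because Hk1 is the member that changed. The first is the 250 bases before the outer start of these 2 (chr10:62379909-62380158, minus strand, 49.6% G or C). The second is the outer 129 of the 250 bases before the inner start (chr10:62340543-62340671, minus strand, 62% G or C). Both are from RefSeq for GRCm38.p6. The RefSeq gene record reaches base 62379920, so the innermost bases of the first window lie within the gene.
Hk1 outer start: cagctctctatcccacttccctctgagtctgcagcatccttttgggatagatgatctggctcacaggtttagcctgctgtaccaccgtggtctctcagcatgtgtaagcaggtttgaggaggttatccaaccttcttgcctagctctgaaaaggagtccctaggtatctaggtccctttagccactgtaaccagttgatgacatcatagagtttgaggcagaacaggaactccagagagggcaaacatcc
Hk1 inner start: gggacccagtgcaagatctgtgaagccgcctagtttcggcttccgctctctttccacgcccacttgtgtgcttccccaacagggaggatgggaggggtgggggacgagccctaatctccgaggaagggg
Neither holds TTCNNNGAA, the motif that STAT5 is known to bind, or CACGTG, the E-box bound by the MYC family, on either strand. Bases further upstream, which the study's own search for the STAT5 motif in other genes covered, were not searched here. Absence from these short windows therefore does not show whether STAT5 binds near Hk1. Over the 58 windows of 250 bases before the start sites of 39 members, TTCNNNGAA was present in 2 (3.45%), which belong to Pfkm and Aldoc, against 7.02% of all 32851 RefSeq promoters of the same length and 5.94% of the promoters of tested genes. CACGTG was present in 7 windows (12.1%), those of Pfkm, Pfkfb2, Pfkfb3, Ldha, Slc16a1, Fbp2 and G6pc3, against 6.02% of all promoters and 8.13% of the promoters of tested genes. Both motifs are palindromes apart from the N bases, and the windows of 1 gene can overlap.

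Hk1 is also the hexokinase of red cells and many other cell types, so markers of those were set beside it. The 4 globin genes were listed at 0 in all libraries, but they form near-identical pairs whose reads cannot be told apart, so these zeros do not show that red cell RNA was absent. Alas2, the haem synthesis enzyme of red cell precursors, was measured at 8.61, 10.3, 16.1, 5.61 and 7.67 CPM in controls 1 to 5 and at 9.22, 13.8, 22.5, 26.8 and 15.1 CPM in Stat5Adipoq 1 to 5, with a log2 fold change of 0.87 and an adjusted p of 0.19 in edgeR's test. Without control 3 its log2 fold change was 1.12, with an adjusted p of 0.055 in edgeR's test and 0.0015 by DESeq2, so that it was called higher beside Hk1 by DESeq2 there. The sum of 7 red cell genes ranged from 5.66 to 16.6 CPM in controls and from 9.89 to 28.0 CPM in Stat5Adipoq. With the 4 globin genes at 0, this sum was mostly Alas2 and is no separate marker. The sum of 7 endothelial genes ranged from 766 to 910 and from 825 to 1001 CPM. All 7 log2 fold changes lay above 0, or 6 of 7 without control 3, and none was called. The sum of 8 macrophage genes ranged from 145 to 193 and from 126 to 159 CPM, with 7 of 8 below 0 and none called. The part of these cells in the Hk1 difference was not tested.

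Gpi1, which turns glucose 6-phosphate into fructose 6-phosphate, had the highest level per kilobase of its group, 399 ± 55.3 CPM in controls. Its values were 1041, 1079, 1432, 1107 and 1091 CPM in controls 1 to 5 and 794, 1046, 1210, 1466 and 1276 CPM in Stat5Adipoq 1 to 5. Both extremes lay in Stat5Adipoq, and the log2 fold change was 0.01 (95% interval -0.30 to 0.32), or 0.10 without control 3.

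**Figure D2:**
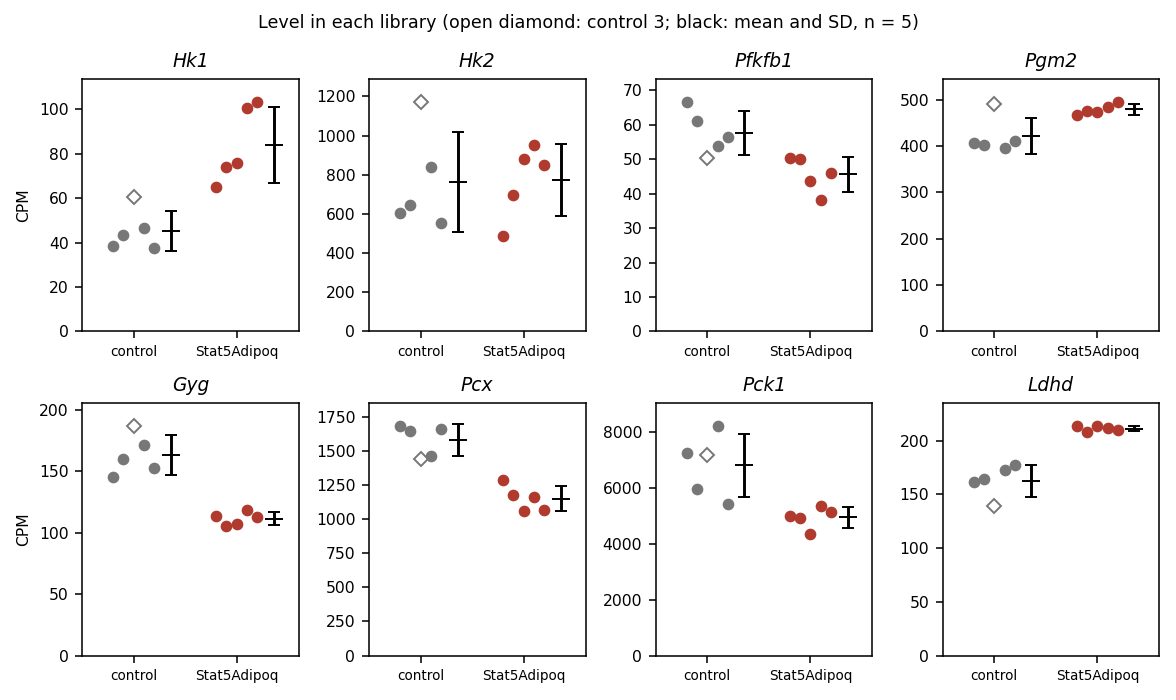
Level in CPM (y axis, from 0) of 4 members and 4 other genes of glucose metabolism in each of the 5 control (grey) and 5 Stat5Adipoq (red) libraries; the open diamond is control 3 and the black mark the mean with its SD. The groups are separate for Hk1, Pfkfb1, Gyg, Pcx, Pck1 and Ldhd, overlap for Hk2, and for Pgm2 control 3 lies among the Stat5Adipoq libraries.

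Phosphofructokinase 1 commits glucose to glycolysis, and its 3 subunit genes were not called. Pfkl, the liver-type subunit, was the most abundant per kilobase, at 345 ± 67.3 CPM in controls, against 58.3 ± 14.5 for the muscle-type Pfkm and 56.4 ± 15 for the platelet-type Pfkp. Pfkl was measured at 1117, 1156, 1690.1, 1375 and 1098 CPM in controls 1 to 5 and at 996, 1063, 1501, 1910 and 1587 CPM in Stat5Adipoq 1 to 5. The groups overlapped, with a log2 fold change of 0.13 (95% interval -0.25 to 0.52). Pfkp had a log2 fold change of 0.11. Without control 3 the values were 0.25 for Pfkl and 0.24 for Pfkp, and neither was called (adjusted p 0.53 and 0.62). For Pfkm it was -0.13 with control 3, the library with muscle RNA and with 241 CPM against 137 to 155 CPM in the other controls, and 0.04 without it.

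Fructose 2,6-bisphosphate activates phosphofructokinase 1, and the 4 Pfkfb genes encode the enzymes that make and degrade it. Pfkfb1, which encodes the liver and muscle form, was measured at 66.6, 61.1, 50.4, 53.9 and 56.3 CPM in controls 1 to 5 and at 50.4, 50.1, 43.7, 38.1 and 45.8 CPM in Stat5Adipoq 1 to 5. All controls lay above all Stat5Adipoq libraries, although control 3 and Stat5Adipoq 1 were level to 3 digits. The log2 fold change was -0.33 (95% interval -0.53 to -0.14). Its adjusted p was 0.084 in edgeR's test of all 10 libraries, and it passed without control 3 (-0.38, adjusted p 0.042), by DESeq2 (0.020) and with the replicate number as a block (0.037). It was the only member besides Hk1 with groups that did not overlap in all 10 libraries, 2 of 39 in total, beside 4.39% of all tested genes. Without control 3 the groups did not overlap for 5 of 39, which were Hk1, Pfkfb1, Tpi1, Ldhb and Pgm2, beside 6.83%.

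Pfkfb3 encodes the form with high kinase and low phosphatase activity and had the highest level per kilobase of the 4, 519 ± 139 CPM in controls. Its level was 1334, 765, 1323, 1456 and 875 CPM in controls 1 to 5 and 547, 979, 580.1, 984 and 818 CPM in Stat5Adipoq 1 to 5. The 3 highest libraries were controls and the 2 lowest were Stat5Adipoq, with overlap between 765 and 984 CPM. The log2 fold change was -0.56 (95% interval -1.02 to -0.10), larger than that of Pfkfb1, but with the wide spread it did not pass (adjusted p 0.22, and 0.29 without control 3). Pfkfb2, at 44.7 ± 4.76 CPM, and Pfkfb4, at 8.93 ± 1.5 CPM in controls, had log2 fold changes of -0.07 and -0.02.

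Aldolase and triose phosphate isomerase split the hexose and interconvert the triose products. Aldoa had the highest recorded level per kilobase of all 40 members, at 3348 ± 395 CPM in controls. Gapdh, Pgk1, Pgam1 and Eno1 cannot be ranked with it, since their levels are uncertain, as described below. Aldoa lay at 4474, 5073, 6139.7, 5298 and 4948 CPM in controls 1 to 5 and at 3739, 5139, 5693, 6663 and 5999.7 CPM in Stat5Adipoq 1 to 5. The Stat5Adipoq libraries spanned the control range on both sides (log2 fold change 0.07, 95% interval -0.22 to 0.36). Aldoc, the brain form, was near its detection limit, at 1.25 ± 0.385 CPM. Tpi1 was measured at 386, 392, 531, 419.5 and 383 CPM in controls 1 to 5 and at 435, 419.7, 431, 448 and 460.1 CPM in Stat5Adipoq 1 to 5. Control 3 was the highest of the 10, and without it the groups did not overlap, with a log2 fold change of 0.15 that was not called (adjusted p 0.16).

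In lower glycolysis, the recorded levels of several members need care, since the libraries were read as single 50-base reads and these genes have many near-identical copies. The share of 50-base words of the coding sequence that occur also in another annotated gene was 94.2% for Gapdh, which encodes glyceraldehyde 3-phosphate dehydrogenase, with 222 genes sharing words. It was 100% for Pgk1 and Pgam1, the phosphoglycerate kinase and mutase, and 83.3% for Eno1, the main enolase. These 4 were the only members above 80%. Over the whole transcript, which sets the length used for CPM per kilobase, the share was lower, at 90.4% for Gapdh, 72.2% for Eno1, 68.0% for Pgk1 and 41.5% for Pgam1, so that most of the Pgam1 transcript is found in no other gene. Their recorded level ran from 0.057 to 16.8 CPM per kilobase in controls, while Aldoa, whose enzyme acts earlier and which shares 16.9% of its words, stood at 3348 and Pkm, whose enzyme acts after theirs, at 705. Eno1 had 0 to 3 counts per library, which left it out of the test. How reads with several placements were counted is not given in the sources used here, so these 4 values are uncertain as levels. Gapdh was recorded at 6.03, 5.26, 5.89, 6.37 and 4.75 CPM in controls 1 to 5 and at 5.36, 6.02, 8.21, 5.95 and 5.83 CPM in Stat5Adipoq 1 to 5. Its groups overlapped, with a log2 fold change of 0.14 (95% interval -0.16 to 0.45), and Pgk1 and Pgam1 had 0.06 and -0.03, or 0.12 and 0.14 without control 3.

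**Figure D3:**
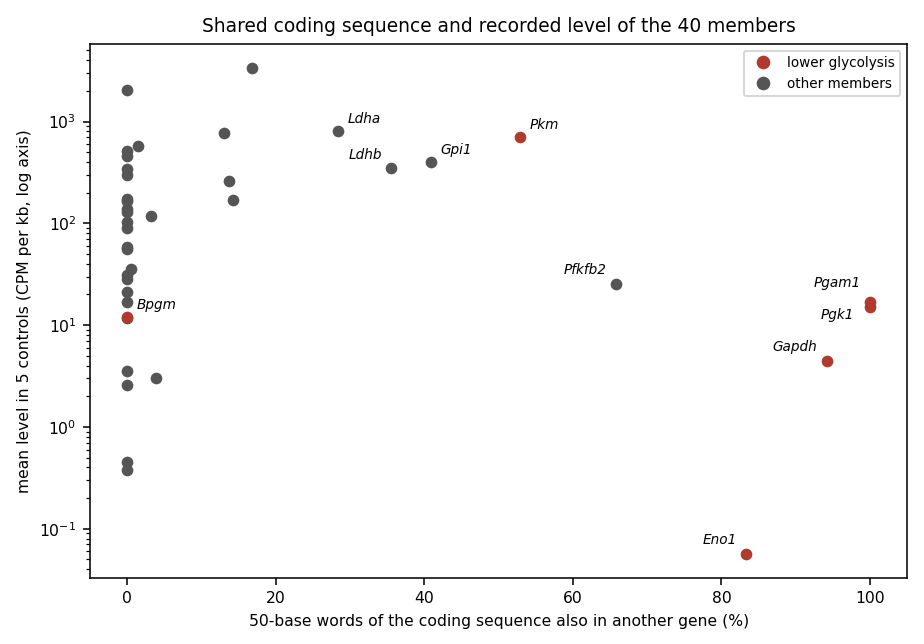
Percentage of 50-base words in the coding sequence that occur in another annotated gene (x axis) and mean level in the 5 controls in CPM per kilobase (y axis, log scale) for the 40 members, with lower glycolysis in red. Gapdh, Pgk1, Pgam1 and Eno1 lie at the right, all below 17 CPM per kilobase, while most highly recorded members lie below 60% shared words.

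Pkm encodes pyruvate kinase, the last enzyme of glycolysis. Beside the uncertain levels of Gapdh, Pgk1, Pgam1 and Eno1, Pkm had the highest recorded level of the lower glycolysis genes. It was measured at 1575, 1689.6, 1933, 1641 and 1733 CPM in controls 1 to 5 and at 1596, 1939, 2071, 2451 and 2093 CPM in Stat5Adipoq 1 to 5. Of the Stat5Adipoq libraries, 4 lay above every control and Stat5Adipoq 1 lay near the lowest control. The log2 fold change of 0.24 (95% interval 0.03 to 0.46) did not pass (adjusted p 0.26). Pkm shares 52.9% of its coding words with other genes, so its level is also uncertain. The same holds for Pfkfb2 (65.8%), Gpi1 (40.9%), Ldhb (35.6%) and Ldha (28.4%). Bpgm, which makes 2,3-bisphosphoglycerate, had a log2 fold change of 0.11 at 26.7 ± 2.76 CPM in controls.

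Lactate is made and used by lactate dehydrogenase and crosses the membrane through monocarboxylate transporters. Ldha, the subunit that favours lactate formation, had the highest level per kilobase of this group and was measured at 1359, 1421, 1781, 1488 and 1302 CPM in controls 1 to 5 and at 1167, 1219, 1625, 1688 and 1555 CPM in Stat5Adipoq 1 to 5. The groups overlapped (log2 fold change -0.02, 95% interval -0.27 to 0.23). Ldhb, the heart-type subunit, was measured at 443, 425, 522, 451 and 417 CPM in controls and at 451, 469, 526, 506 and 516 CPM in Stat5Adipoq, in the same order. Without control 3 every Stat5Adipoq library lay above every control, by as little as 450.6 against 450.7 CPM, and the log2 fold change of 0.19 was not called (adjusted p 0.13).

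Slc16a1 encodes MCT1, and its log2 fold change was 0.16 (95% interval 0.02 to 0.30, adjusted p 0.26) at 567 ± 39.1 and 633 ± 42.0 CPM. Slc16a3 encodes MCT4, a transporter typical of glycolytic muscle. It was measured at 1.53, 0.635, 3.73, 1.31 and 0.913 CPM in controls 1 to 5 and at 1.34, 0.961, 1.11, 1.54 and 1.28 CPM in Stat5Adipoq 1 to 5. Control 3 was the highest, on 31 counts, and the log2 fold change was -0.34 with it and 0.14 without it. Neither value passed the test.

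For the release of glucose, G6pc3, which encodes a widely expressed glucose 6-phosphatase, had the higher level per kilobase of its pair. G6pc3 lay at 39.3, 47.1, 46.9, 44.3 and 44.7 CPM in controls 1 to 5 and at 52.1, 53.7, 48.7, 46.1 and 47.7 CPM in Stat5Adipoq 1 to 5. The overlap was limited to the range from 46.1 to 47.1 CPM, and the log2 fold change of 0.16 was not called (adjusted p 0.26). Fbp2, the muscle form of fructose 1,6-bisphosphatase, had a log2 fold change of -0.04 with control 3 and 0.14 without it.

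Of the 7 glycogen members, none was called in all 10 libraries. Pgm2, the name the deposited gene table gives to Entrez 72157, which RefSeq calls Pgm1, encodes a phosphoglucomutase that links glycogen to glucose 6-phosphate. It was measured at 407, 403, 492, 395 and 411 CPM in controls 1 to 5 and at 466, 475, 475, 484 and 496 CPM in Stat5Adipoq 1 to 5. Control 3 lay among the Stat5Adipoq libraries, and the other 4 controls lay below all of them. The log2 fold change was 0.18 (95% interval 0.05 to 0.32, adjusted p 0.17) with control 3 and 0.25 (adjusted p 0.012) without it. Opposite-strand genes cover 13.6% of its exon bases, and whether the counting used strand is not given in the sources used here. The gene named Pgm1 in the table (Entrez 66681, Pgm2 in RefSeq) was low, at 8.49 ± 0.721 CPM, with a log2 fold change of 0.06.

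Pygl, the liver form of glycogen phosphorylase, was the most abundant glycogen gene per kilobase. Pygl lay at 1551, 1657, 1609.8, 1624 and 1672 CPM in controls 1 to 5 and at 1421, 1667, 1796, 1886 and 1714 CPM in Stat5Adipoq 1 to 5. The controls were tight and the Stat5Adipoq libraries spread to both sides of them, with a log2 fold change of 0.06 (95% interval -0.09 to 0.22). Glycogen synthase Gys1 (-0.09), branching enzyme Gbe1 (-0.02), UDP-glucose pyrophosphorylase Ugp2 (0.03) and brain-form phosphorylase Pygb (0.18) all had log2 fold changes whose 95% intervals included 0. Without control 3, 1 of 7 was called, the single gene Pgm2 described above, beside 3.26% of all tested genes.

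In the oxidative pentose phosphate branch, which yields NADPH, Pgd had the highest level per kilobase, 461 ± 32.7 CPM in controls. It encodes 6-phosphogluconate dehydrogenase and was measured at 909, 1013, 1109, 1039 and 1038 CPM in controls 1 to 5 and at 772, 966, 1250.4, 1344 and 1189 CPM in Stat5Adipoq 1 to 5. The Stat5Adipoq libraries lay on both sides of the controls (log2 fold change 0.11, 95% interval -0.17 to 0.39). G6pdx, the rate-limiting dehydrogenase, was found at 450.2 ± 24.4 and 481 ± 42.0 CPM (0.10), and Pgls, the lactonase between these enzymes, at 91.8 ± 5.95 and 82.6 ± 6.93 CPM (-0.15, adjusted p 0.32).

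In the non-oxidative branch, Tkt, which encodes transketolase, had more counts than any other member. It was measured at 6318, 6539, 7016, 5879 and 6946 CPM in controls 1 to 5 and at 5409, 6449, 6561, 6924 and 6933 CPM in Stat5Adipoq 1 to 5, which is a log2 fold change of -0.02 with a 95% interval from -0.19 to 0.15. Transaldolase Taldo1 (-0.01, interval -0.15 to 0.12) and ribose 5-phosphate isomerase Rpia (-0.01, interval -0.40 to 0.38) were as near to 0. Without control 3, Rpia had a log2 fold change of 0.14 and was not called (adjusted p 0.73).

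Some libraries of a genotype were high or low over many members at once. Control 3 held the highest control value of 28 of the 39 tested members. Within Stat5Adipoq, library 1 held the lowest value of 22 and library 4 the highest of 20. The same counts were not made over all tested genes, so they do not show a trait particular to the members. The summed level of the 40 was 26339, 27253, 32287, 27966 and 27277 CPM in controls 1 to 5 and 22939, 27469.7, 29854, 33216 and 30686 CPM in Stat5Adipoq 1 to 5. The summed level of 9 brown adipocyte genes, in the same order, was 12889.9, 11745, 19396, 15529 and 9477 CPM and 12247, 12332, 16153, 17258 and 17147 CPM, so that control 3 and Stat5Adipoq 3 to 5 were high on both sums. No relation between these sums was tested. Ucp1, at the levels given above, is among the 9 brown adipocyte genes and weighs heavily in their sum. Control 3 held the highest control value of only 4 of the 9.

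**Figure D4:**
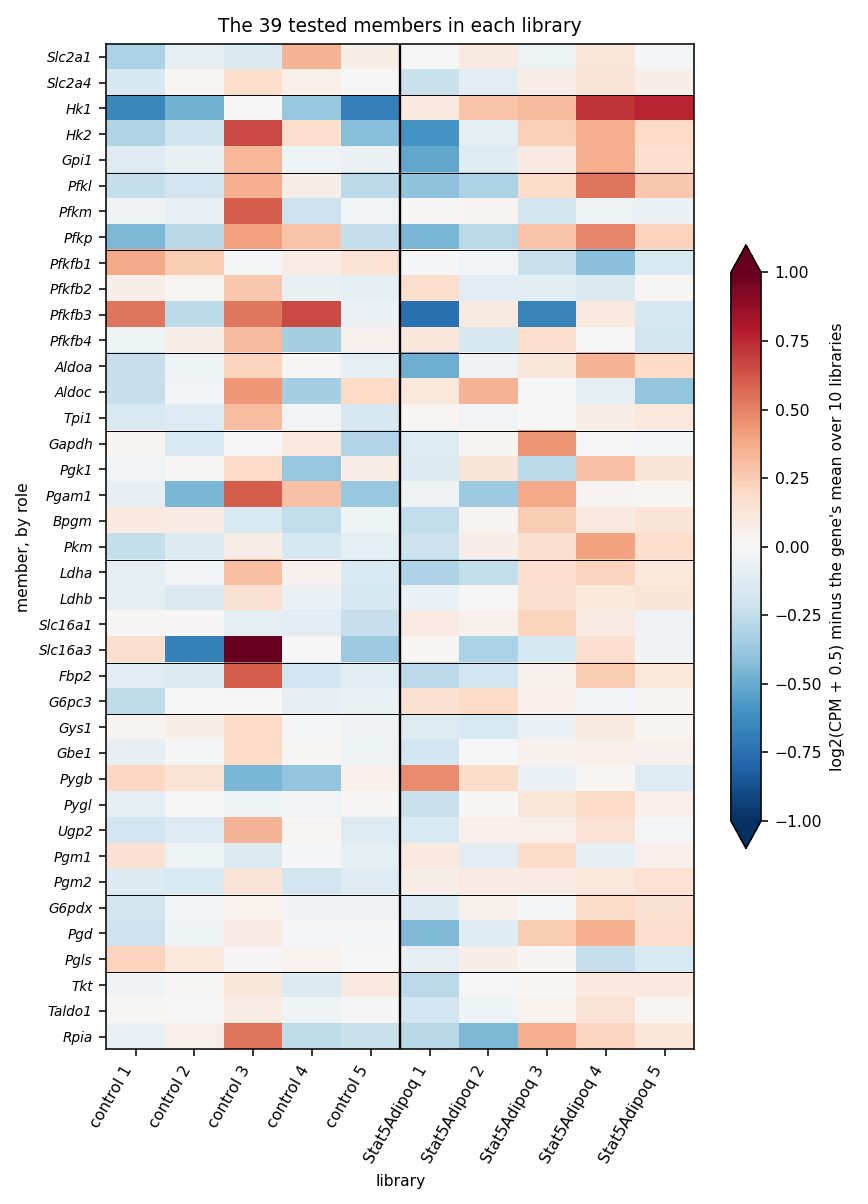
Each tested member (rows, by role) in each library (columns), coloured by log2(CPM + 0.5) minus the gene's mean over the 10 libraries, with the colour scale ending at 1 in each direction. Hk1 is blue or near white in the controls and red in Stat5Adipoq, and many other rows share the warm colours of control 3 and Stat5Adipoq 4 and the cool colours of Stat5Adipoq 1.

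The muscle forms of glycolytic enzymes gave the size of the muscle signal in control 3. Pygm, muscle phosphorylase, was recorded at 205.7 CPM there, 19.2 times the mean of the other controls. Eno3, the muscle enolase, reached 128.7 CPM (9.91 times) and Pgam2, the muscle phosphoglycerate mutase, 34.0 CPM (12.7 times). Control 5 came next, with 22.2, 21.2 and 4.66 CPM. In Stat5Adipoq the ranges were 5.45 to 6.34, 6.86 to 11.1 and 1.34 to 2.31 CPM, and none of the 3 genes was called with control 3 (adjusted p 0.15, 0.22 and 0.21) or without it. Among members the ratio of control 3 to the other controls ran from 0.718 for Pygb to 3.39 for Slc16a3. It was 1.78 for Hk2, 1.62 for Pfkm and 1.45 for Hk1. The part of muscle RNA in these ratios was not tested.

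**Figure D5:**
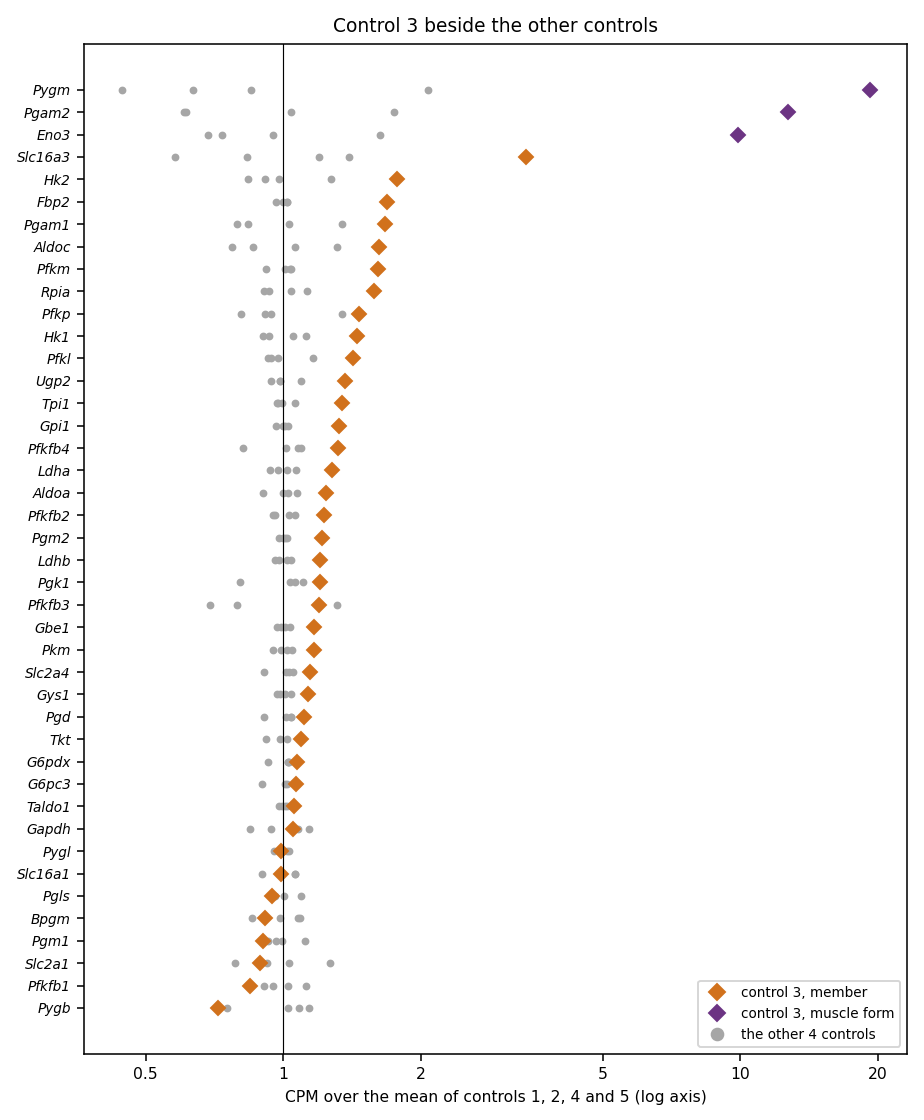
CPM in control 3 (diamonds) and in the other 4 controls (grey points), each over the mean of those 4 controls (x axis, log scale), for the 39 tested members in order of the ratio and, at the top, the 3 muscle-form enzymes. The muscle forms lie at 9.91 to 19.2 and the members at 0.718 to 3.39.

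Other genes of these pathways were read from a list of 59 that holds no member, of which 54 were tested. In all 10 libraries 7 of the 54 (13.0%) were called, 5 lower and 2 higher, beside 2.71% of all tested genes. Without control 3 the count was 5, 4 lower and 1 higher, beside 3.26%. The list was chosen with earlier results of these data known, so its distance from the background shares is not read as a result.

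Gyg encodes glycogenin, the protein that primes a new glycogen particle. It was measured at 145, 159.9, 187, 171 and 152 CPM in controls 1 to 5 and at 113, 105, 107, 119 and 113 CPM in Stat5Adipoq 1 to 5. The groups were separate, with a log2 fold change of -0.55 (95% interval -0.70 to -0.39, adjusted p 0.0021, and 0.0014 without control 3). Pcx, pyruvate carboxylase, turns pyruvate into oxaloacetate. It was found at 1682, 1642, 1443, 1459 and 1659.7 CPM in controls 1 to 5 and at 1285, 1179, 1057, 1164 and 1066 CPM in Stat5Adipoq 1 to 5. Here too the groups were separate, with a log2 fold change of -0.46 (95% interval -0.61 to -0.30, adjusted p 0.0055, and 0.0032 without control 3).

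Pck1, the cytosolic phosphoenolpyruvate carboxykinase that adipocytes use to make glycerol 3-phosphate, was measured at 7239, 5942, 7172, 8202 and 5406 CPM in controls 1 to 5 and at 4969.7, 4915, 4349.5, 5326 and 5124 CPM in Stat5Adipoq 1 to 5. The groups were separate, by 5406 against 5326 CPM. The log2 fold change was -0.46 with an adjusted p of 0.037, and -0.44 with 0.052 without control 3. Phkg1, the muscle-type catalytic subunit of phosphorylase kinase, was measured at 4.98, 3.72, 13.2, 2.43 and 4.57 CPM in controls and at 1.84, 1.15, 1.75, 1.32 and 0.958 CPM in Stat5Adipoq. Its log2 fold change was -2.0 (adjusted p 0.029) with control 3 and -1.46 (0.011) without it.

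Ldhd, the mitochondrial enzyme that oxidises D-lactate, was measured at 161, 164, 139, 172 and 178 CPM in controls 1 to 5 and at 214, 208, 214, 212 and 209.8 CPM in Stat5Adipoq 1 to 5. The groups were separate, with a log2 fold change of 0.38 (95% interval 0.24 to 0.51, adjusted p 0.0092, and 0.0041 without control 3). Opposite-strand genes cover 42.1% of its exon bases, so reads of a partner may be counted with it if strand was not used. Stbd1, which tethers glycogen to membranes, was measured at 11.8, 11, 11.4, 11.1 and 13.3 CPM in controls and at 15, 15, 15.5, 14.4 and 14.1 CPM in Stat5Adipoq. Its log2 fold change was 0.34 with an adjusted p of 0.043, and 0.33 with 0.063 without control 3.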

How the data were processed

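RNA of whole BAT was made into stranded mRNA libraries and sequenced as single 50-base reads. Per the labels and the study's methods, the authors aligned reads to GRCm38 (mm10) with STAR 2.5.0b and counted exon reads per gene with featureCounts 1.5.0-p1. The deposited values are raw counts, 1 file per library. The authors' comparison table gave only gene symbols here. Its fold changes, p-values and the tables of called genes were not used. Genes were kept where the sum of counts over DESeq2 size factors was above 45. Fits used edgeR 4.0.16 (quasi-likelihood test, TMM scaling) in R 4.3.3, with Benjamini-Hochberg adjustment over all 13568 genes and a threshold of 0.05. CPM use TMM library sizes, and CPM per kilobase the GENCODE vM21 transcript with the longest coding sequence. DESeq2 1.42.0 and limma 3.58.1 were alternatives. The precision is limited by 5 libraries per group, and no library pair agreed within sampling noise (lowest chi-square per degree of freedom 4.99). The labels do not say that each library is a separate animal, so p-values measure the spread between these libraries. Replicate numbers were taken from the titles. Their pairing check is given with the other settings.

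The members and lists were chosen with earlier results of these data known. Values in every library are given for members called in either fit or by DESeq2, with groups that do not overlap with or without control 3, with a log2 fold change that moved by over 0.2 without control 3, or with the highest level per kilobase of their role. Called genes of the wider list, of which 1 is not reported here, 3 muscle forms and the deleted genes are named as well. Gapdh and Pfkm are named with further values chosen after those were seen.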

Additional observations from a re-analysis of the deposited data

Results flagged for a closer look

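Single libraries stood apart from the other 4 of their genotype, by Dixon's test, in 13 of 102 groups of 5 examined, where chance gives about 1 in 20. Of the 13, 10 were control 3, the library with muscle RNA. Among members these were Gpi1 at 1432 CPM (others 1041 to 1107), Pfkm at 241 CPM (137 to 155), Tpi1 at 531 CPM (383 to 419.5), Slc16a3 at 3.73 CPM (0.635 to 1.53), Fbp2 at 42.4 CPM (24.3 to 25.7) and Pgm2 at 492 CPM (395 to 411). Outside the members they were Pgam2 at 34.0 CPM, Eno3 at 128.7 CPM, Pygm at 205.7 CPM and Phkg1 at 13.2 CPM. In Stat5Adipoq, Gapdh stood apart in library 3 at 8.21 CPM (others 5.36 to 6.02), Gbe1 in library 1 at 448 CPM (514 to 532) and Stat5a in library 1 at 20.7 CPM (15.8 to 16.6).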

How the results depend on the processing

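Members were called lower once (Pfkfb1) by DESeq2, in the fit with a replicate block and by DESeq2 with control 3 left out, and 0 to 1 times when leaving out each library in turn, where only the omission of control 3 gave 1. Members were called higher 2 times (Hk1 and Pgm2) with a muscle score as covariate, by DESeq2 with control 3 left out and with controls 3 and 5 left out, an alternative chosen after seeing the data, and 1 to 2 times when leaving out each library, again with 2 only without control 3. The wider list gave 7 calls in all 10 libraries, 3 to 6 when leaving out each library and 4 with the replicate block. The counts were 3 without Stat5Adipoq 2, 3, 4 or 5 and 4 without control 1 or 4. Calls over all tested genes fell likewise, from 368 to between 185 and 266 without Stat5Adipoq 2, 3, 4 or 5, to 221 and 219 without control 1 or 4 and to 273 with the block. The replicate numbers share no stated animal, litter or day, and deviations of libraries with the same number correlated from -0.23 to 0.08, with 2 of 10 libraries closest to their own number, so the block is only a setting. The median log2 fold change of the members stayed between -0.02 and 0.12 over 20 settings. Hk1, Gyg, Pcx, Ldhd, Stat5a and Stat5b were called in all 20. Pck1 was called in 11, Phkg1 in 14 and Stbd1 in 6. Depth limits Phkg1, Slc16a3, Aldoc and Eno1. The part of shared sequence in the low levels of Gapdh, Pgk1, Pgam1 and Eno1 was not tested.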
